A study of Arabidopsis thaliana with 48 samples.

Results

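The transcripts described here were higher late after transfer to auxin in Arabidopsis thaliana roots: 75 of the 22746 probe sets tested (0.33%) had not risen above their control level by 0.5 (log2) or more in the first 2 h on the auxin indole-3-acetic acid (IAA) and were at least 2-fold above it at both 12 and 24 h. A probe set, a group of short probes for one transcript, was a member if its mean over all 48 arrays was at least 6.5 on the log2 intensity scale, if the mean of the 3 IAA arrays exceeded that of the 3 control arrays by less than 0.5 (log2) at 0.5, 1 and 2 h, and if it did so by at least 1 at 12 and at 24 h. The members were thus selected on measured values of 5 contrasts, and the differences at 0.5, 1, 2, 12 and 24 h are given as a description without a test. The IAA effects at 0, 4 and 8 h, which the selection did not use, were tested. The arrays of those times entered it only through the mean level. Members had to climb between 2 and 12 h, so rises at 4 and 8 h were favoured by the selection.

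Roots came from 6-day-old seedlings that had grown on a nylon mesh over medium with sucrose in continuous light. The mesh was then laid on fresh medium, either without hormone (control) or containing 1 µM IAA, and roots were harvested at 0 h (less than 5 minutes on the new medium), 0.5, 1, 2, 4, 8, 12 and 24 h. The 16 combinations of medium and time had 3 arrays each, and all seedlings, controls included, were transferred. The labels used here give no ecotype or mutation and do not say whether the 3 replicates were separate plantings, so p-values measure the spread between these samples, which may be technical.

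Auxin acts in plant cells by bringing Aux/IAA repressor proteins to degradation, which frees ARF transcription factors to switch on target genes within minutes. The first targets include genes of the GH3 family, which conjugate IAA to amino acids. Later changes can follow from the products of these first targets or from growth responses such as lateral root formation, in which walls of overlying cells are loosened and partly taken apart.

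Of the 75 members, 35 (46.7%) had exactly 1 gene in the array's gene table, 4 had several and 36 were not listed in it, against 59.4% with 1 gene among all probe sets tested. The 35 named genes lay on all 5 nuclear chromosomes, with 6, 4, 9, 7 and 9 genes on chromosomes 1 to 5. Of these, 8 carry a symbol in the RefSeq gene table: EXPB2, SAG29, GH3.17, SAL2, HHP2, TBL36, scpl20 and scpl28. The others are given by locus, without a role, because the tables used here annotate none for them. The loci AT4G28150 and AT4G28160 have 1 gene between them. Mean levels of the members ran from 6.58 to 12.6 with a median of 8.11 (log2 intensity), against a median of 7.58 over all probe sets.

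All arrays had means between 7.70 and 7.71 and correlated with each other at 0.937 to 0.997. The 4 arrays farthest from the mean of their groups were IAA 1 h replicate 3, control 0 h replicate 3, IAA 24 h replicate 2 and IAA 2 h replicate 3. Without IAA 2 h replicate 3 the selection kept 59 of the 75 members, so the early condition leaned on that array for the others. IAA 24 h replicate 2 was the lowest of its 3 arrays in 45 of the 75 members (60%) and in 39.0% of all probe sets. Where the difference at 24 h of a named member is given and that array was clearly low, the difference without it is given too.

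As a group the members showed no IAA effect at the start, a small one at 4 h and most of the final one by 8 h. The median difference between IAA and control roots was 0.01 at 0 h, -0.02 at 0.5 h, -0.10 at 1 h and 0.14 at 2 h (log2). It was 0.50 at 4 h, 1.25 at 8 h, 1.61 at 12 h and 1.55 at 24 h, which corresponds to 1.41-, 2.38-, 3.05- and 2.93-fold. The quartiles of the members were 0.99 and 1.81 at 8 h, 1.29 and 2.17 at 12 h and 1.19 and 2.08 at 24 h, while the median of all probe sets was -0.02 at 4 h and -0.01 at 8 h. Replicate by replicate, the median member difference was 0.55, 0.49 and 0.37 at 4 h and 1.28, 1.30 and 1.18 at 8 h, so the 3 replicates lay close together at each time. At 24 h these medians were 1.60, 1.47 and 1.71, and without IAA 24 h replicate 2 the median difference over the members was 1.58.

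**Figure D1:**
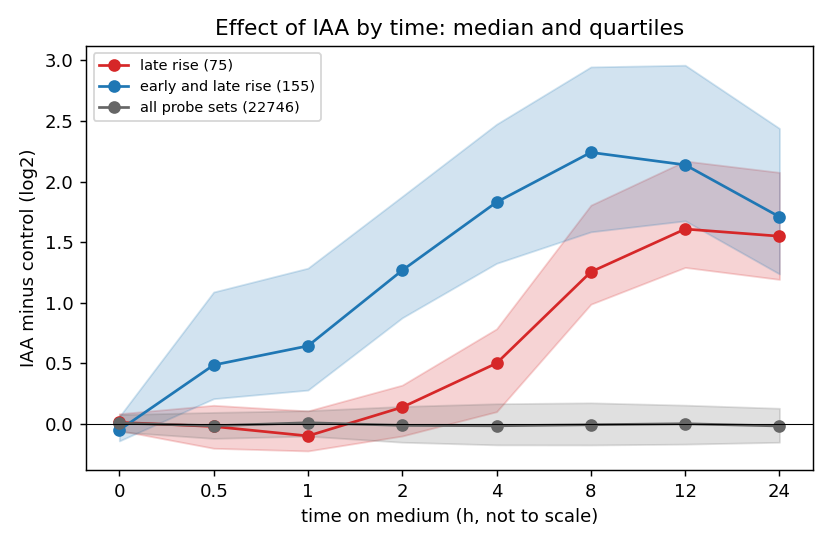
The log2 difference between IAA and control roots (vertical axis) at each time on medium (horizontal axis, equally spaced), as the median (points and lines) and the quartiles (bands) of each set of probe sets. The members' median stays near 0 to 2 h, lies at 0.50 at 4 h and reaches 1.25 at 8 h; the values at 0.5, 1, 2, 12 and 24 h chose the sets.

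The members' median level changed in IAA roots and hardly in control roots. Against the 0 h arrays of the same medium, the median member stood 0.47 higher at 4 h, 1.21 higher at 8 h, 1.60 higher at 12 h and 1.54 higher at 24 h in IAA roots. In control roots the corresponding medians were 0.02, 0.01, -0.01 and 0.01. Single members ran from -0.50 to 0.75 at 4 h and from -0.42 to 1.35 at 24 h in control roots. At 8 h all 75 members had a higher mean than at 0 h in IAA roots, and in 74 of the 75 that rise was larger than any fall of the control. Of all 22746 probe sets, 11267 had a higher mean at 8 h in IAA roots. In 11930 the change in IAA roots exceeded the fall in control roots. No member passed the test in control roots at 4 or 8 h against 0 h, nor did any of the 22746 probe sets (limma, Benjamini-Hochberg over all probe sets, background 0%). At an unadjusted p under 0.05 there were 2 members and 511 probe sets at 4 h, and 1 member and 538 probe sets at 8 h. IAA against control at 0 h also gave no call among the members or over all probe sets (0%), with 1 member and 181 probe sets at an unadjusted p under 0.05. In RNA from whole roots, more cells of a type that carries a transcript and more of the transcript per cell cannot be told apart.

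At 8 h, 66 of the 75 members rose with IAA and none fell (limma, adjusted p under 0.05), which is 88% against a background of 8.45% of all probe sets higher and 6.43% lower. At 4 h, 31 rose (41.3%, background 9.73% higher), 1 fell (background 7.1% lower) and 43 did not pass. All 31 that rose at 4 h were also higher at 8 h, 35 passed at 8 h alone, and 9 passed at neither time. Leaving out IAA 4 h replicate 2 lowered the count at 4 h to 19, and leaving out every array of replicate 1 or of replicate 2 lowered it to 14 or 19. At 8 h the count stayed between 59 and 66 whichever arrays were left out. The minimum level of the selection includes the IAA arrays, and 10 members would not have met it on their control arrays alone. These are EXPB2, AT3G20300, AT2G43860, AT4G28160, AT3G27400, AT1G62760, AT5G57400, AT2G25200 and 2 probe sets without a single gene. Of the other 65 members, 27 rose at 4 h and 58 at 8 h.

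Counted array by array, all 3 IAA arrays exceeded all 3 control arrays in 43 members at 4 h and in 69 at 8 h, against 17.1% and 18.4% of all probe sets. Before then this held for 0 members at 0 h, 4 at 0.5 h, 1 at 1 h and 10 at 2 h (2.06%, 6.65%, 6.45% and 10.6% of all probe sets). It held for 75 at 12 h and 67 at 24 h (17.3% and 9.61%), times at which the selection itself asked for a difference. A difference of at least 1 was present in 11 members at 4 h (2.17% of all probe sets) and in 55 at 8 h (2.11%).

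**Figure D2:**
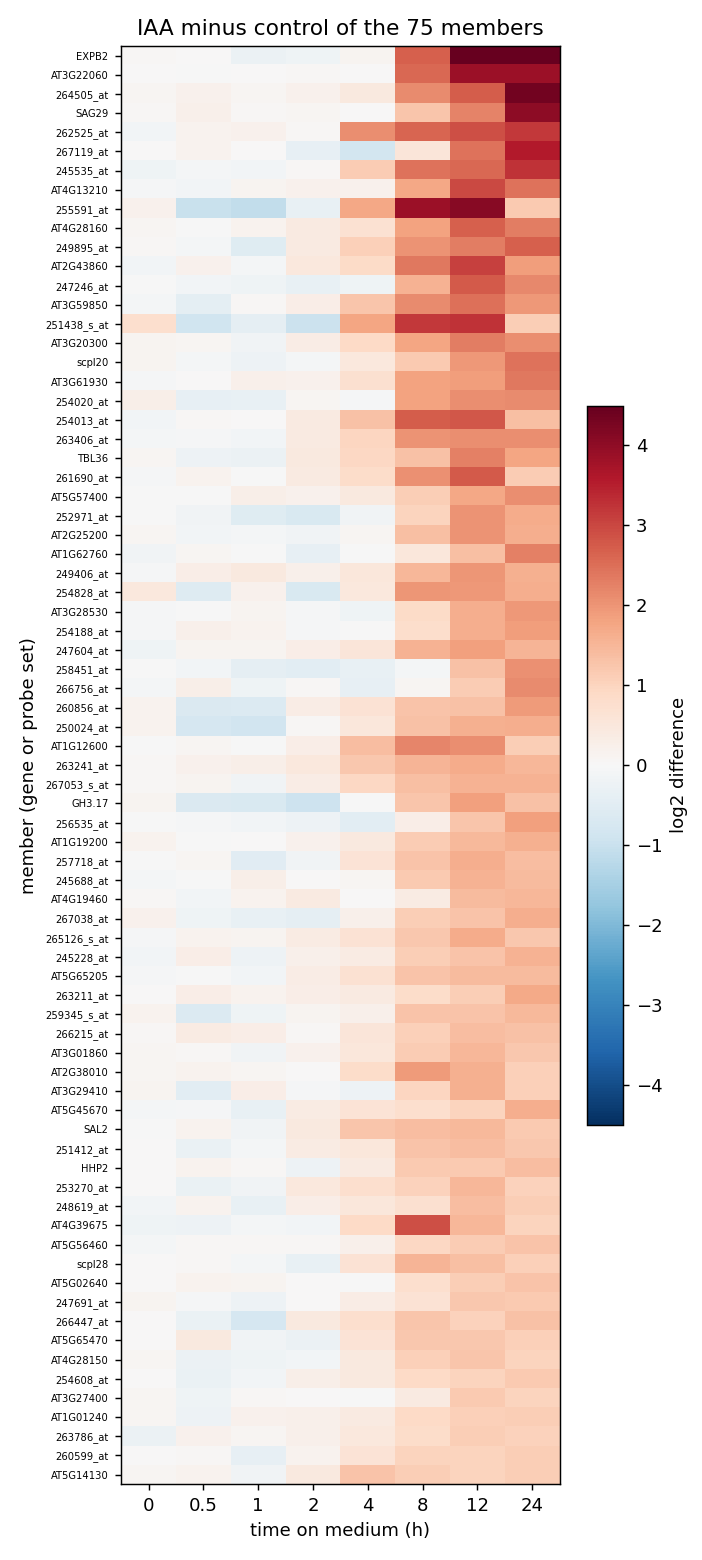
The log2 difference between IAA and control roots for each of the 75 members (rows, ordered by their mean difference at 12 and 24 h) at each time (columns); red is higher and blue lower with IAA. Red appears in 11 rows at the 1 log2 level at 4 h and in 55 at 8 h, and the columns at 0.5, 1, 2, 12 and 24 h were used to choose the rows.

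The step from 4 to 8 h was tested as an interaction, the IAA effect at 8 h minus that at 4 h. It was larger at 8 h in 13 members (17.3%, background 0.207% of all probe sets larger and 0.106% smaller) and smaller in none, and 50 members had an unadjusted p under 0.05. Of the 65 members that met the minimum level on control arrays alone, 10 passed; the other 3 were EXPB2, AT3G20300 and a probe set without a single gene. These 13 make up 27.7% of the 47 probe sets with a larger effect at 8 h in the whole array. The selection asked for differences under 0.5 at 2 h and of at least 1 at 12 h. It thus favoured a larger effect at 8 h than at 4 h, and the shares are not independent of it. The effect was numerically larger at 8 h in 74 of the 75 members, against 49.6% of all probe sets. The exception was AT5G14130, chosen here after its values were seen, which differed by -0.17. The count of 13 depended on which arrays were fitted. It was 1 without replicate 1 and 6 without replicate 2 or replicate 3, and none of the 13 passed in all 15 fits that left arrays out. Over those fits the step stayed between 2.45 and 2.70 for EXPB2, 2.29 and 2.77 for AT3G22060, 1.42 and 1.67 for AT4G13210, 0.99 and 1.58 for SAG29 and 0.80 and 1.01 for AT3G20300. For comparison, 155 probe sets met the same late condition and the same minimum level but were already at least 0.5 above control at 0.5, 1 or 2 h. Of those 142 rose at 4 h and 146 at 8 h, their median difference was 1.83 at 4 h and 2.24 at 8 h, and 10 of them (6.45%) passed the interaction. They were split from the members by the early differences, which also bears on the later step.

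**Figure D3:**
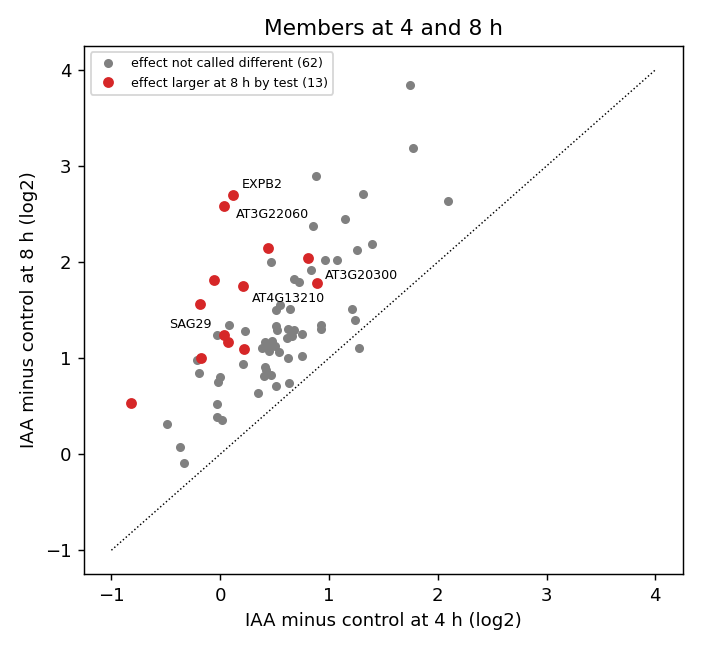
Each member's log2 difference between IAA and control roots at 4 h (horizontal) and at 8 h (vertical); red points are the 13 members with a larger effect at 8 h by the interaction test, grey points the other 62, and the dotted line marks equal effects. Of the 75 points 74 lie above the line, and EXPB2 and AT3G22060 lie near 0 at 4 h and above 2.5 at 8 h.

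EXPB2 (AT1G65680, chromosome 1), a beta-expansin of the protein family that loosens plant cell walls, had the largest late difference of the members with 1 gene. On control medium its 24 arrays lay between 6.02 and 6.88 with a median of 6.33. EXPB2 met the minimum level of the selection only through its IAA arrays. The IAA arrays read 6.65, 6.24 and 6.49 at 4 h, then 9.29, 9.05 and 8.84 at 8 h. All 3 IAA arrays of 8 h lay above all 24 control arrays, whereas those of 4 h overlapped with them. The difference at 4 h was 0.12 (SE 0.251, n = 3 arrays a group, limma adjusted p = 0.829), and at 8 h EXPB2 rose 6.47-fold (2.69, SE 0.251, adjusted p = 2.4e-10). The step from 4 to 8 h was 2.57 (SE 0.355, adjusted p = 0.000105, and 0.105 without replicate 1). At 12 h the IAA arrays read 11.1, 11.3 and 10.6 and at 24 h 11.4, 9.77 and 11.6, which is 25.01- and 24.1-fold above control. The second array of 24 h was the low one, and without it the difference at 24 h was 5.16 in place of 4.59.

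EXPB2 was the one member in the list of expansins and XTHs, wall enzymes that cut and rejoin xyloglucan, taken from the symbols in the gene tables. Of the 29 genes measured in that list 2 rose and 7 fell at 8 h (background 8.45% higher and 6.43% lower), 3 rose and 6 fell at 4 h (9.73% and 7.1%), and the median difference at 8 h was -0.05. The largest changes of non-members in the list at 8 h were falls. EXPB1, another beta-expansin, was 5.71-fold lower at 8 h (log2 difference -2.51, SE 0.319, limma adjusted p = 2.35e-07). XTH21 stood at -1.92 (adjusted p = 1.22e-05) and XTH16 at -1.62 (adjusted p = 8.38e-07). TBL36 belongs to the TRICHOME BIREFRINGENCE-LIKE family, whose studied members add acetyl groups to wall polysaccharides. Its IAA arrays read 11.3, 11.4 and 11.0 at 4 h against 10.5, 10.7 and 9.65 in control, and 12.1, 12.1 and 11.5 at 8 h against 10.8, 10.5 and 10.6. The groups did not overlap at either time. TBL36 rose by 0.93 at 4 h (adjusted p = 0.0217, and 0.223 without the low control array) and by 1.30 at 8 h (SE 0.288, adjusted p = 0.00127), and stood at 2.28 at 12 h and 1.77 at 24 h, or 2.17 at 24 h without IAA 24 h replicate 2. The TBL36 call at 4 h was also lost without IAA 4 h replicate 1 or 2 (limma adjusted p = 0.0608 and 0.0855).

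AT3G22060 followed EXPB2 most closely in size. Its IAA arrays at 8 h read 9.11, 9.50 and 9.69 and its control arrays 6.65, 6.88 and 7.002, so the groups were well apart. The difference was 0.03 at 4 h (limma adjusted p = 0.968) and 2.59 at 8 h (SE 0.285, adjusted p = 1.12e-08, 6.00-fold), a step of 2.55 (adjusted p = 0.000492, but 0.16 without replicate 1 and 0.0904 without replicate 3). At 12 and 24 h it was 14.4- and 14.5-fold above control, and without the low IAA 24 h replicate 2 (9.53 against 11.4 and 11.7) the difference at 24 h was 4.52 in place of 3.86.

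SAG29 (AT5G13170, chromosome 5), a senescence-associated gene that encodes the sugar transporter SWEET15, had its largest difference at the last time. Its 24 control arrays lay between 6.52 and 7.02. On IAA the arrays read 8.34, 8.05 and 7.58 at 8 h, 9.31, 8.99 and 8.62 at 12 h and 10.8, 10.7 and 10.9 at 24 h, with no overlap between consecutive times. The difference was 0.03 at 4 h (limma adjusted p = 0.939), 1.24 at 8 h (SE 0.155, adjusted p = 1.57e-07), 2.24 at 12 h and 4.04 at 24 h, the last being 16.4-fold. The step from 4 to 8 h was 1.21 (adjusted p = 0.00336, but 0.443 without replicate 1 and 0.55 without replicate 2). IAA 24 h replicate 2 was not apart in this gene, and the difference at 24 h was 4.08 without it.

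**Figure D4:**
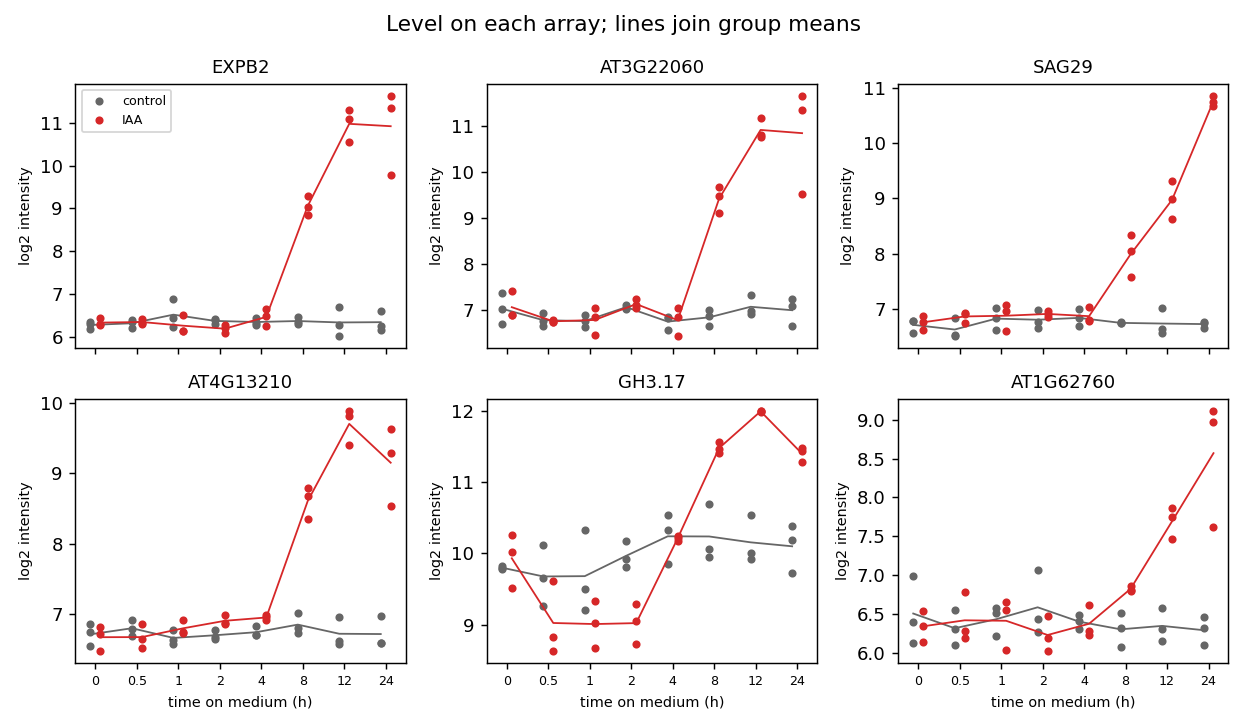
Log2 intensity (vertical) on each of the 48 arrays (points) by time on medium (horizontal, equally spaced) for EXPB2, AT3G22060, SAG29, AT4G13210, GH3.17 and AT1G62760, with IAA in red, control in grey and lines through group means. IAA and control arrays separate from 8 h on in all 6 genes, the lone low point at 24 h in EXPB2 (9.77), AT3G22060, AT4G13210 and AT1G62760 is replicate 2, and GH3.17 on IAA lies below control at 2 h.

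GH3.17 (AT1G28130, chromosome 1), an enzyme that links IAA to amino acids and so removes it from the free pool, was the member with a symbol that differed most from control in the opposite direction early on. Its differences were -0.65, -0.67 and -0.95 at 0.5, 1 and 2 h. At 2 h the IAA arrays read 8.73, 9.29 and 9.04 and the control arrays 9.81, 10.2 and 9.92, with all IAA arrays lower. At 4 h the groups overlapped, at 10.2, 10.2 and 10.2 with IAA and 9.86, 10.3 and 10.5 in control (difference -0.03, limma adjusted p = 0.965). At 8 h the IAA arrays read 11.5, 11.6 and 11.4 against 9.95, 10.1 and 10.7, and GH3.17 rose by 1.24 (SE 0.254, adjusted p = 0.000525). The step of 1.27 from 4 to 8 h did not pass (adjusted p = 0.147), and the difference was 1.84 at 12 h and 1.30 at 24 h. In all, 11 members had a difference of -0.5 or lower at 0.5, 1 or 2 h, against 7.42% of all probe sets, and none could have had one of 0.5 or more.

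The list of primary auxin response genes is given beside the members, and its measured genes are no members. Of the 9 genes of 20 that had a single-gene probe set, 8 rose at 4 h and 8 at 8 h and none fell. Their median difference was 3.11 at 2 h, 3.01 at 4 h, 2.66 at 8 h, 2.04 at 12 h and 0.94 at 24 h, while that of the members was 0.50 at 4 h and 1.25 at 8 h. At 2, 12 and 24 h the members' level was set by the selection, so the lists are not compared at those times.

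The remaining members with a symbol rose by 1.17 to 1.51 at 8 h. The serine carboxypeptidase-like genes scpl20 and scpl28 belong to a family of hydrolases and acyltransferases. For scpl20 the IAA arrays read 10.2, 10.1 and 9.65 at 8 h against 8.50, 8.98 and 8.86 in control, a rise of 1.18 (SE 0.175, limma adjusted p = 4.08e-06), after 0.48 at 4 h (adjusted p = 0.0555). It stood at 1.94 at 12 h and 2.43 at 24 h, or 2.70 at 24 h without replicate 2. For scpl28 they read 10.02, 10.23 and 10.04 against 8.60, 8.52 and 8.64, a rise of 1.51 (SE 0.189, adjusted p = 1.65e-07), after a rise of 0.64 at 4 h (adjusted p = 0.0149, and 0.117 without IAA 4 h replicate 2), and the later differences were 1.35 and 1.08, the last being 1.38 without replicate 2. The scpl20 difference was thus larger at 24 h than at 8 h and the scpl28 difference smaller, with or without that array. The scpl28 call at 4 h was also lost without control 4 h replicate 1 or 2 (limma adjusted p = 0.0701 and 0.0713). SAL2, related to the phosphatase SAL1, was already higher at 4 h, where the IAA arrays read 7.89, 7.94 and 7.82 and the control arrays 6.76, 6.42 and 6.75. It rose by 1.24 at 4 h (SE 0.156, adjusted p = 2.33e-07) and by 1.40 at 8 h (adjusted p = 1.49e-08), and stood at 1.46 and 1.17 later, so its difference changed little after 4 h. HHP2, a heptahelical transmembrane protein, rose by 1.17 at 8 h (SE 0.181, adjusted p = 9.31e-06) after 0.41 at 4 h (adjusted p = 0.122), and stood at 1.17 and 1.38 later.

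Among the members known by locus, AT4G13210 had a course like that of EXPB2 up to 12 h. Its IAA arrays at 8 h read 8.79, 8.68 and 8.35 against 6.74, 7.02 and 6.80 in control. It rose by 1.75 at 8 h (SE 0.166, limma adjusted p = 3.39e-10) after 0.21 at 4 h (adjusted p = 0.469), a step of 1.55 (adjusted p = 0.000381, and 0.11 without replicate 1), and stood at 2.98 at 12 h and 2.43 at 24 h, or 2.74 at 24 h without replicate 2. AT3G20300, which met the minimum level only through its IAA arrays, was the fifth single-gene member to pass the interaction, with rises of 0.89 at 4 h (adjusted p = 1.7e-06) and 1.78 at 8 h (adjusted p = 1.96e-13) and a step of 0.89 (SE 0.176, adjusted p = 0.00982). That step did not pass without any one of the replicates (adjusted p = 0.299, 0.277 and 0.0929 without replicates 1, 2 and 3). Its 3 IAA arrays read 7.20, 7.27 and 7.17 at 4 h, 8.05, 8.22 and 8.08 at 8 h and 8.82, 8.76 and 8.49 at 12 h, each time above the one before without overlap.

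Several members passed the test at both 4 and 8 h. AT3G59850 rose by 1.25 at 4 h (SE 0.255, limma adjusted p = 0.000455) and by 2.13 at 8 h (adjusted p = 6.89e-08). AT1G12600 rose by 1.39 at 4 h (SE 0.156, adjusted p = 2.02e-08) and by 2.19 at 8 h (adjusted p = 2.85e-13). AT2G43860 rose by 0.85 at 4 h (SE 0.273, adjusted p = 0.0268) and by 2.38 at 8 h (adjusted p = 2.86e-08). The call of AT2G43860 at 4 h was lost without any one of its 6 arrays (adjusted p from 0.0569 to 0.0825). At every time the control mean of AT2G43860 lay under 6.29, the highest of the lower quartiles of the arrays. AT3G61930 rose by 0.72 at 4 h (adjusted p = 0.0127, and 0.119 without IAA 4 h replicate 2) and by 1.80 at 8 h (SE 0.208, adjusted p = 3.5e-08). AT4G28160 stood at 0.68 at 4 h (adjusted p = 0.134) and rose by 1.82 at 8 h (SE 0.307, adjusted p = 3.51e-05). At 24 h its difference was 2.29, or 3.07 without IAA 24 h replicate 2. Both AT2G43860 and AT4G28160 met the minimum level only through their IAA arrays. AT4G39675 stood at 0.88 at 4 h and did not pass there (SE 0.485, adjusted p = 0.244). It had the largest difference at 8 h of the single-gene members and the widest spread. Its IAA arrays read 9.13, 9.95 and 10.9 against 6.66, 6.75 and 7.91 in control, a rise of 7.43-fold (2.89, SE 0.485, adjusted p = 3.18e-05), and at 12 and 24 h it stood at 1.48 and 1.00, the last being 1.42 without replicate 2.

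A few members were not distinguished from control by the test at 8 h. The 9 that did not pass at 8 h included AT4G19460 (0.36, limma adjusted p = 0.387), AT3G27400 (0.39, adjusted p = 0.311), AT1G62760 (0.52, adjusted p = 0.175) and AT5G45670 (0.74, adjusted p = 0.142), and 5 probe sets without a single gene. AT1G62760 read 6.80, 6.81 and 6.87 with IAA at 8 h against 6.33, 6.09 and 6.51 in control, so the IAA arrays were all higher but by little. By 24 h they read 8.97, 7.63 and 9.12, a difference of 2.27, or 2.74 without replicate 2. AT5G02640 rose by 0.75 at 8 h (SE 0.157, adjusted p = 0.000651, but 0.0693 without replicate 1). AT3G28530, whose probe set type can bind transcripts of related genes, rose by 0.85 (SE 0.188, adjusted p = 0.00129, but 0.0501 without replicate 2). The other 12 single-gene members, outside the rule for naming genes, all rose at 8 h, so 31 of the 35 single-gene members did, as did 35 of the 40 others.

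Among probe sets without a single gene, 264505_at, 262525_at and 267119_at had the largest late differences. The 1st stood at 0.44 at 4 h, 2.14 at 8 h, 2.74 at 12 h and 4.36 at 24 h. The 2nd was high from 4 h on, at 2.09, 2.63, 2.91 and 3.19. The course of 267119_at changed direction. At 4 h its IAA arrays read 7.04, 6.80 and 6.90 against 7.57, 7.46 and 8.17 in control, and it fell by 0.82 (SE 0.219, limma adjusted p = 0.00734), the one member with a fall at that time. It stood at 0.53 at 8 h, a step of 1.34 from 4 h (adjusted p = 0.0437), and at 24 h its IAA arrays read 11.4, 10.7 and 11.4, a difference of 3.57, or 3.82 without replicate 2.

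After 12 h the difference grew in some members and shrank in others, in most of them by less than 0.5. The selection used both 12 and 24 h, and these changes were not tested. The largest of the differences at 4, 8, 12 and 24 h was that of 12 h in 35 members, of 24 h in 34, of 8 h in 5 and of 4 h in 1. The time of the largest difference was not counted over all probe sets. From 12 to 24 h the difference grew by at least 0.5 in 12 members (4.24% of all probe sets) and shrank by at least 0.5 in 13 (3.55%), and without IAA 24 h replicate 2 these counts were 17 and 5. The growing ones included SAG29, AT1G62760, AT5G45670 (1.00 to 1.64) and AT3G61930 (1.89 to 2.39). Of the shrinking ones, AT1G12600 went from 2.10 to 1.10 and did so on every array, with IAA arrays of 8.74, 8.61 and 8.67 at 12 h and 7.79, 7.90 and 7.83 at 24 h. AT2G43860 went from 3.07 to 1.90, but its IAA arrays at 24 h read 8.79, 6.56 and 8.53, and without the low one the difference was 2.60. AT3G59850 likewise went from 2.49 to 1.94, or to 2.51 without that array, so its decrease rests on 1 array. The probe set 255591_at, chosen here after its values were seen, went furthest down, from 4.08 to 1.19, with IAA arrays of 10.4, 7.60 and 10.1 at 24 h and a difference of 2.08 without the low one.

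**Figure D5:**
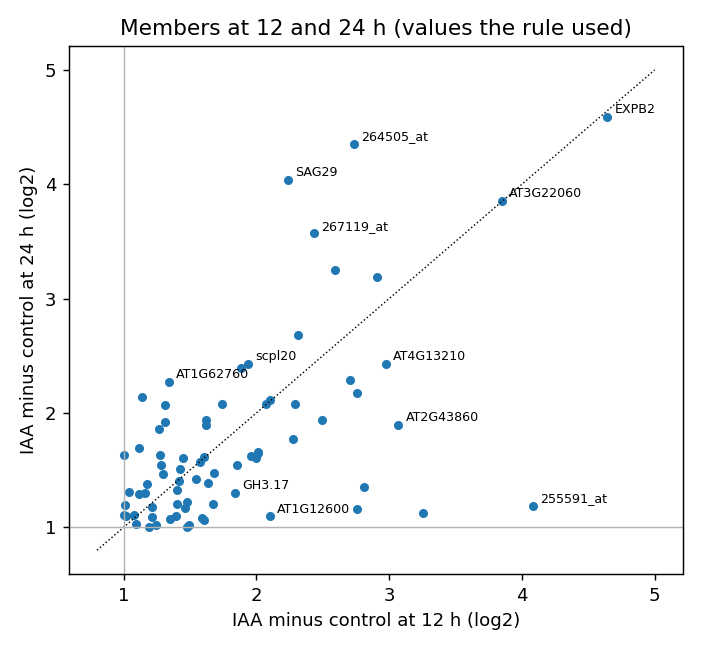
Each member's log2 difference between IAA and control roots at 12 h (horizontal) and at 24 h (vertical), the values that chose the members; grey lines mark the minimum of 1 and the dotted line equal differences. SAG29, 264505_at and 267119_at lie above the dotted line and AT1G12600 and 255591_at below it, while EXPB2 and AT3G22060 lie close to it.

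In 61 of the 75 members all 6 IAA arrays of 12 and 24 h lay above all 24 control arrays of the course. The selection itself asked for a difference at both times, and the share of all probe sets was not counted. The selection bounds were met closely by some members. At 12 h the lowest member, AT5G14130, stood at 1.00 and the nearest probe set outside at 0.981, and at 24 h AT3G27400 stood at 1.00 (1.41 without replicate 2) and the nearest outside at 0.998. The highest early difference was 0.489 in AT2G43860 and the nearest outside was 0.505, and the lowest mean level was 6.58 against 6.42 outside.

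The tissue label could be set against few markers with a single-gene probe set, and none of the 12 root markers listed had one. The 2 of 22 endodermal barrier and suberin markers measured had array means of 9.64 to 9.83 in control and 9.71 to 9.76 in IAA roots at 8 h, and of 9.56 to 9.91 in control and 9.87 to 10.2 in IAA roots at 24 h. Of these 1 fell at 4 h and none passed at 8 h. The means average opposite differences. FACT stood at 0.44 at 8 h and 1.24 at 24 h, and GSO1 at -0.44 and -0.67. The 2 of 9 root hair markers had array means of 9.22 to 10.04 in control and 10.1 to 10.5 in IAA roots at 4 h, where 1 rose, and of 9.06 to 9.96 and 9.43 to 9.70 at 8 h, where none passed. Their median difference was -0.46 at 12 h and -0.38 at 24 h. The 2 of 10 shoot and photosynthesis markers measured had array means of 7.823 to 7.965 in control roots at 4 h. In IAA roots at 4 h the means were 7.219 to 7.558, and 1 of the 2 fell. At 8 h the means were 7.79 to 7.89 in control and 7.52 to 8.02 in IAA roots, and none passed. At 24 h these were 7.58 to 8.01 in control and 7.81 to 8.36 in IAA roots, and the part of any of these cell types in the members' values was not tested. Of the 3 of 20 cell division genes measured, 1 rose at 4 h and 2 at 8 h (background 9.73% and 8.45% higher). Their array means were 8.41 to 8.47 in control and 8.85 to 8.96 in IAA roots at 8 h. Their median difference was 0.57 at 8 h, 0.23 at 12 h and 0.24 at 24 h. The part of dividing cells in the members' rise was not tested. Only the 35 single-gene members could match a list, and none was in those of cell division, pathogenesis-related, lateral root emergence or endodermal genes. Few genes of these lists were measured. The 1 of 15 lateral root emergence genes measured rose at 4 and 8 h (2.66 and 4.02), as did 2 of the 3 of 8 pathogenesis-related genes measured, with a list median of 2.31 at 4 h and 4.53 at 8 h. None of the 14 xylem and secondary wall genes had a single-gene probe set.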

How the data were processed

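RNA from whole roots was labelled by the Affymetrix 3′-IVT procedure per the labels, and 48 single-channel arrays were read. The authors deposited 1 table of log2 intensities for 22810 probe sets. The log2 scale was read from the values (array maxima of 14.1 to 15.1); the methods of summary and normalization are not given in the sources used here. The values were used as deposited. The array means (7.70 to 7.71) were closer together than the medians (7.46 to 7.64).

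Before testing, 64 control probe sets of the manufacturer were dropped, and low values were not filtered. Arrays have no read depth, and 3 arrays a group limit the precision. Genes came from the array's gene table (13513 probe sets with 1 gene, 503 with several, 8730 not listed) and symbols from the RefSeq gene table of TAIR10.1. Where probes sit on the genome is not used here.

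With limma 3.58.1 in R 4.3.3 (lmFit and eBayes), 1 model estimated the 16 group means from all 48 arrays (32 residual degrees of freedom before moderation). Contrasts were IAA minus control at 0, 4 and 8 h, the effect at 8 h minus that at 4 h, and control at 4 and 8 h minus control at 0 h. Each was two-sided and Benjamini-Hochberg adjusted over 22746 probe sets, with an adjusted p under 0.05 taken as passing. Errors (SE) are those of the fit. The code was tested on simulated data. The members and the lists were chosen with earlier results of these data known.

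Genes were named by a rule over the members with 1 gene. It took the 10 with the largest mean difference at 12 and 24 h, the 6 largest and 6 smallest at 8 h, the 4 with the largest growth and the 4 with the largest decrease from 12 to 24 h, members of a list, and members with a symbol. It added up to 3 non-members of a list that holds a member, and the 3 largest probe sets without a single gene. Alternatives were quantile normalization, median centring, a level filter, a fold minimum, a replicate block, a fit on the times compared alone, and leaving out replicates.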

Additional observations from a re-analysis of the deposited data

Results flagged for a closer look

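The IAA effect differed between 4 and 8 h by the interaction test in 13 members, each larger at 8 h (limma, adjusted p under 0.05; 0.207% of all probe sets were larger). The 5 with a single gene were EXPB2 with a difference between the times of 2.57 (adjusted p = 0.000105), AT3G22060 with 2.55 (adjusted p = 0.000492), AT4G13210 with 1.55 (adjusted p = 0.000381), SAG29 with 1.21 (adjusted p = 0.00336) and AT3G20300 with 0.89 (adjusted p = 0.00982), all on the log2 scale. EXPB2 and AT3G20300 met the minimum level only through their IAA arrays. Of the 65 members that met it on control arrays alone, 10 passed. The selection favoured a larger effect at 8 h than at 4 h. None of the 13 passed in all 15 fits that left arrays out.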

How the results depend on the processing

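With 3 arrays a group, the count at 8 h held best: 66 members rose in the main setting and 59 to 66 when arrays were left out, and 55 of the 66 passed in all 9 such fits. At 4 h the main count was 31, the range over left-out arrays was 14 to 31, 11 of the 31 passed in all 9 such fits, and asking for a 2-fold change in addition gave 10. For the larger effect at 8 h than at 4 h the main count was 13. It was 1 to 13 with arrays left out, 22 with the times compared fitted alone, and 26 without the 4 arrays farthest from their groups, an alternative chosen after seeing the data. The deviations of IAA and control arrays of the same time and number correlated at over 0.1 in 20 of 24 pairs (range -0.18 to 0.483), a hint of a shared effect; the other 4 pairs, at 4 and 12 h, did not, and the labels do not say what a number marks, so the samples were not treated as paired. With the replicate number as a block the counts were 36 at 4 h, 66 at 8 h and 19 for the interaction. Of named members, HHP2 (adjusted p = 0.0197) and scpl20 (0.0383) then passed at 4 h, and HHP2 (0.0481), AT3G28530 (0.0387) and AT2G43860 (0.0483) for the interaction. The selection itself gave 75 members in the main setting, 53 to 88 with arrays left out, 121 with early differences under 1, 29 with late differences of at least 1.5, and 205 with a late difference at either 12 or 24 h. It kept 37 of the 75 whichever of 30 single arrays was left out, and 59 without IAA 2 h replicate 3 alone. No setting called a member at 0 h or in control roots. Reversals of sign arose in values that had not passed. For AT1G62760 at 4 h the difference was 0.0258 under quantile normalization. With arrays left out, differences at 4 h ran from -0.12 to 0.15 for SAG29, -0.163 to 0.0778 for AT5G02640, -0.0605 to 0.0663 for AT4G19460, -0.20 to 0.24 for AT3G22060, -0.20 to 0.12 for AT3G27400, -0.24 to 0.13 for GH3.17, -0.149 to 0.0477 for AT1G62760 and -0.0144 to 0.230 for EXPB2, and the step from 4 to 8 h of AT5G45670 from -0.28 to 0.54. The cause of these changes was not tested.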
